A study of Mus musculus with 4 samples.

Results

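The 10 genes described here code for the enzymes that build fatty acids from acetyl-CoA, lengthen them and put double bonds into them, together with the transcription factor Srebf1 that drives many of their genes. They were chosen by their symbols, from a list drawn up with the Smad4 KO and WT values of these libraries in view, and each matched 1 of the 31227 rows of the deposited count table. The difference between genotypes that follows therefore describes these genes and is no independent evidence about the pathway. RNA was sequenced from colonic epithelial cells of mice aged 8 to 10 weeks, in 2 libraries from mice with an epithelial Smad4 knockout (KO, replicates 1 and 2), and 2 libraries from wild-type (WT) mice (replicates 1 and 3). All of the mice, of both genotypes, had drunk 3.5% dextran sulfate sodium (DSS), which damages the lining of the colon, for 5 days and then plain water, and were killed on day 7. Untreated colon was not analysed here. The labels name neither the promoter behind the deletion nor the animal behind each library, so the p-values below rest on a spread that may be technical.

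In cells, citrate leaves the mitochondria and is split into acetyl-CoA by Acly, acetyl-CoA is carboxylated to malonyl-CoA by Acaca, and Fasn joins these units into palmitate. Elongases such as Elovl6 and Elovl1 lengthen the chain, Scd1 and Scd2 place the first double bond into saturated chains, and Fads2 and Fads1 act in turn on dietary polyunsaturated fatty acids. Srebf1 encodes a membrane-bound precursor that is cut when sterols or unsaturated fatty acids are scarce and then binds the promoters of many of these genes. The colonic epithelium uses butyrate from bacteria as fuel and renews quickly, so it needs fatty acids for new membranes.

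The libraries held 61260099 and 67927291 counts for KO and 56018009 and 42577920 for WT, so that 1 count stood for 0.0150 to 0.0229 CPM, the unit of level used here, in which each library is brought to the same total. Smad4 itself had 51.5 and 41.1 CPM in the KO libraries, against 152 and 180 CPM in the WT libraries (edgeR adjusted p = 0.00163). All 9 epithelial markers were present, with a summed level of 18426 and 19054 CPM in KO and 18784 and 17850 CPM in WT. Of these markers 4 rose (Krt20, Cdx2, Epcam and Krt18), 1 fell (Krt19) and 4 did not pass. Krt20, a keratin of differentiated surface cells, changed most, with 1270 and 1214 CPM in KO and 777 and 730 CPM in WT (edgeR adjusted p = 0.00150). These genes were named after their values were seen. Some markers of other cells were higher in KO. Among them, 6 of 8 tested neutrophil markers rose, while Camp had no count in any library. The sum over the list was 442 and 431 CPM in KO against 130 and 103 CPM in WT. Most of it was Ly6g (330 and 319 CPM in KO, 116 and 93.3 CPM in WT), so the sum mainly follows this gene. Ly6g rose least of the 6, by 3.09-fold, and Csf3r rose 3.56-fold. S100a8 rose 15.9-fold, with 44.1 and 43.4 CPM in KO and 3.72 and 1.72 CPM in WT. Csf3r and S100a8 were chosen for naming after their values were seen. Of 8 macrophage markers 2 rose (sums of 39.9 and 37.5 CPM in KO, 17.8 and 14.2 CPM in WT), as did 2 of 7 tested fibroblast markers (61.4 and 71.8 CPM in KO, 32.5 and 37.8 CPM in WT) and 1 of 5 tested genes of a lymphocyte list (21.6 and 25.4 CPM in KO, 9.01 and 10.1 CPM in WT). That gene was Ptprc, which all leukocytes express, and the tested T and B cell genes of the list, Cd3e, Cd3d, Cd3g and Ms4a1, did not pass. Of 5 tested squamous and sebaceous gland markers 2 rose (sums of 9.55 and 8.09 CPM in KO, 1.55 and 2.52 CPM in WT), and Krt5, Krt4, Mc5r and Awat1 had no count. None of 5 tested endothelial markers passed (sums of 8.17 and 7.34 CPM in KO, 7.86 and 6.12 CPM in WT), nor did either of the 2 tested glial markers (1.10 and 0.824 CPM in KO, 1.53 and 0.872 CPM in WT). Adipocytes make much fatty acid, and their defining genes Adipoq, Plin1, Lep, Cfd and Retn had no count in any of the 4 libraries. Neither of the 2 tested genes of that list, Pck1 and Cidec, passed. The sum of the list, mostly Pck1, was 82.5 and 83.5 CPM in KO and 85.2 and 91.1 CPM in WT. Cidec had 4.77 and 3.96 CPM in KO and 2.47 and 3.30 CPM in WT (edgeR adjusted p = 0.197). Fabp4 had 4 and 5 counts in KO and 0 in both WT libraries, too few to be tested. Cidec and Fabp4 were named after their values were seen. As for RNA quality, mitochondrial genes took 5.4% and 5.22% of the counts in KO and 4.51% and 4.16% in WT, and the nuclear RNA Malat1 took 0.0305% and 0.0265% in KO and 0.0605% and 0.0813% in WT. The part of these other cells, of the epithelial markers that moved and of RNA quality in the results below was not tested, and in bulk RNA fewer cells of a type and less RNA per cell cannot be told apart.

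All 10 genes had enough counts to be tested among 15838 genes. Of them 6 fell in KO (Acly, Acaca, Fasn, Scd1, Scd2 and Fads2), 1 rose (Elovl6) and 3 did not pass (Srebf1, Elovl1 and Fads1), where a gene passes at an adjusted p under 0.05 over all tested genes. Over all tested genes 15.2% passed, 6.40% as lower and 8.83% as higher. Together the 10 genes had 1833 and 1877 CPM in KO, against 4111 and 4411 CPM in WT. Scd2 alone had 699 and 691 CPM in KO and 2054 and 2233 CPM in WT, so the sum leans on this gene. The median log2 fold change was -0.60 over the 10 genes and 0.01 over all tested genes. The falls were largest in the stearoyl-CoA desaturases, Fads2 and Acly, at 2.71-fold to 3.52-fold, and smaller in Acaca and Fasn, at 1.57-fold and 1.46-fold.

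**Figure D1:**
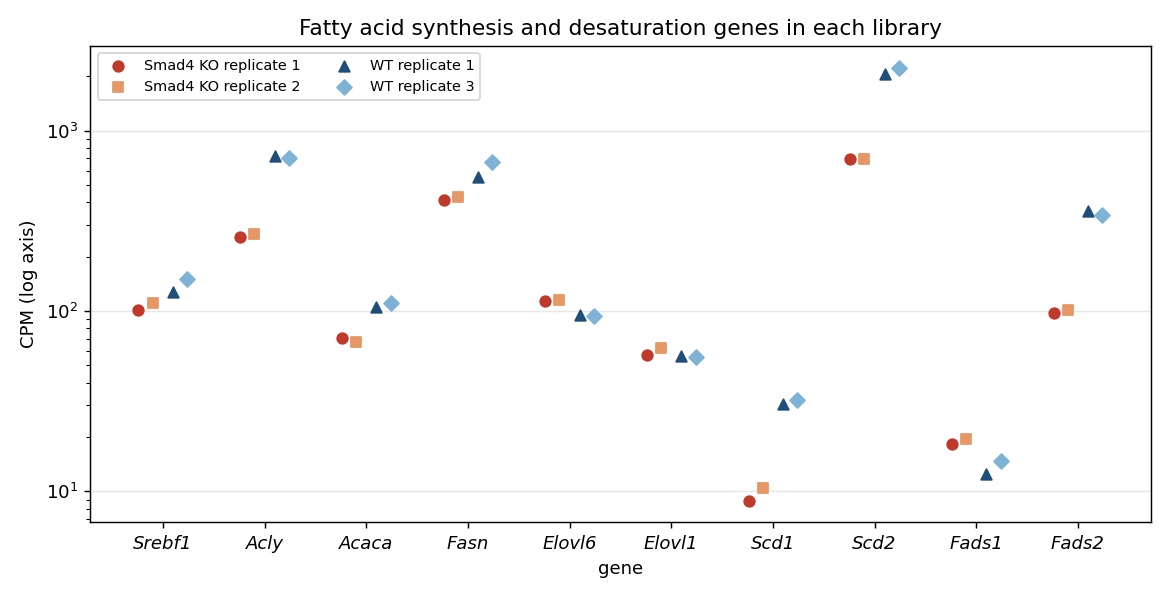
Level of each gene in CPM (log axis) in the 2 Smad4 KO libraries (left of each gene) and the 2 WT libraries (right), 1 point a library. The KO points of Acly, Scd1, Scd2 and Fads2 lie below the WT points, with fold changes of 2.71 to 3.52 in the edgeR fit. Those of Elovl6 and Fads1 lie above the WT points, while the lower KO point of Elovl1 is level with WT.

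Promoters of 7 of the 10 genes are in the RefSeq table for GRCm38.p6 (Srebf1, Acly, Acaca, Fasn, Elovl6, Elovl1 and Fads2), as 10 windows of 250 bases before to 50 bases after a transcription start. Scd1, Scd2 and Fads1 have no entry. The only Acaca window, chr11:84195188-84195487 (plus strand), lies inside the gene, which begins at 84129672. Its matches therefore concern an internal start, and the sequence around the first base of Acaca was not searched. The windows of 3 genes that fell and of Elovl6, which rose 1.21-fold, are shown because these 4 genes differed in direction. Capitals mark the letters CCAAT on either strand, which the factor NF-Y binds together with Srebp proteins at many lipogenic promoters. They lie at chr11:120824498-120824797 (minus strand) for Fasn, chr11:100527951-100528250 (minus strand) for Acly, chr19:10101454-10101753 (minus strand) for Fads2 and chr3:129532136-129532435 (plus strand) for Elovl6, and read 5′ to 3′ along the gene.
Fasn: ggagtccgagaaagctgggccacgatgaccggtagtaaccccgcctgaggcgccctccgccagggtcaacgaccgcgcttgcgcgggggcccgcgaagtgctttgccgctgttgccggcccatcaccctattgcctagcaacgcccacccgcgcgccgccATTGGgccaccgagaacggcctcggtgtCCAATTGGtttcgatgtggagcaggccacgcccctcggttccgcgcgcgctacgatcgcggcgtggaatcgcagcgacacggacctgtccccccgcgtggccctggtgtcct
Acly: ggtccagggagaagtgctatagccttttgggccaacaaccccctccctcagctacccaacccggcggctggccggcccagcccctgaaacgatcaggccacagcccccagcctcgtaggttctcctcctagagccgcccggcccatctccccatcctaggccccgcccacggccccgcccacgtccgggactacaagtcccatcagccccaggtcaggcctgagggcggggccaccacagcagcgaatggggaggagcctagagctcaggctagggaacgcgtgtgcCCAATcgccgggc
Fads2: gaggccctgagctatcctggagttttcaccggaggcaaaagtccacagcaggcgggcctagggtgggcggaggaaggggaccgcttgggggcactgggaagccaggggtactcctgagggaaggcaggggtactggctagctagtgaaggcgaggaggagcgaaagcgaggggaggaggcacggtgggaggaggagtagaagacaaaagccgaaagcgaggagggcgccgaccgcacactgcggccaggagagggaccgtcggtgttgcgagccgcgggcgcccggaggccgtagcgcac
Elovl6: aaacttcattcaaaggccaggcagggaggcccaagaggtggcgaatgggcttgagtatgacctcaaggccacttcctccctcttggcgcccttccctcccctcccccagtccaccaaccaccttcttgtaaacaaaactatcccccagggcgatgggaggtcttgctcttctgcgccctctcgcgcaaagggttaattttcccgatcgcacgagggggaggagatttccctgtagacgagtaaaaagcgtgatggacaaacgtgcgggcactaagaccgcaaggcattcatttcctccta

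CCAAT was found in 5 of the 10 windows, from 4 of the 7 genes (Fasn, Acly, Elovl1 and Srebf1), and 37.4% of all 32851 windows of this length hold it. Counted from the base after the first 250, the Fasn matches begin at -90, -62 and -59, the last 2 overlapping on opposite strands, and the Acly match begins at 37. The windows of Fads2 and Elovl6 hold none. The core of the sterol response element, searched as TCACNCCAC, was in 0 of the 10 windows, against 1.24% of all windows, and the E-box CACGTG was also in 0, against 7.15%. GGGCGG, which Sp1 binds, was in 6 of the 10 windows, from 4 genes (35.7% of all windows), and overlapped the CCAAT match in Elovl1. Letters bound by the factors in the study's title were also searched. CAGAC, part of the Smad site, was in 5 of the 10 windows, from Acaca, Elovl1 and Srebf1 (49.6% of all windows), and GGAATG, the Tead site, was in 0 of the 10 (14.7% of all windows). Every motif was searched on both strands, only as the letters given. Where 1.24% to 14.7% of all windows hold a motif, 10 windows are too few for 0 to show that its site is lacking.

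Among the regulators, Srebf1 (ENSMUSG00000020538, chromosome 11 at 60199089 to 60222581, minus strand, GENCODE M21 on GRCm38) had 101 and 111 CPM in KO, against 128 and 150 CPM in WT. The groups did not overlap, but the log2 fold change of -0.38 (SE 0.102) did not pass (edgeR adjusted p = 0.0673). It passed without WT replicate 1, the lower WT library (log2 fold change -0.50, edgeR adjusted p = 0.0258), when low counts were kept (edgeR adjusted p = 0.0446) and by DESeq2 (adjusted p = 0.00878), with a range over all alternatives of 0.00878 to 0.299. Rai1 overlaps the end of Srebf1 by 109 bases on the other strand and Cdc20 overlaps Elovl1 by 53 bases. The longest such overlap is that of Gm11437 with Acaca, at 19126 bases, and Gm11437 had 129 and 164 counts in KO and 177 and 124 counts in WT. Without stated strand, reads from such overlaps cannot be told apart.

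In the supply of building blocks, Acly (ENSMUSG00000020917, chromosome 11 at 100476353 to 100528000, minus strand) had 258 and 268 CPM in KO and 718 and 707 CPM in WT. It fell 2.71-fold, with libraries of a genotype close together (log2 fold change -1.44, SE of 0.0524 and edgeR adjusted p = 0.000229). Acaca (ENSMUSG00000020532, chromosome 11 at 84129672 to 84401651, plus strand), whose product commits carbon to fatty acids, had 70.7 and 66.9 CPM in KO and 105 and 111 CPM in WT. It fell 1.57-fold (log2 fold change -0.65, SE of 0.0723 and edgeR adjusted p = 0.00487), and without KO replicate 2 the adjusted p was 0.0529. Fasn (ENSMUSG00000025153, chromosome 11 at 120805846 to 120824547, minus strand) had 410 and 430 CPM in KO and 553 and 673 CPM in WT. The WT libraries differed from each other more than the KO libraries did, and the fall was 1.46-fold (log2 fold change -0.55, SE of 0.102 and edgeR adjusted p = 0.0243). Its call was lost without KO replicate 1 (edgeR adjusted p = 0.134) and without KO replicate 2 (edgeR adjusted p = 0.104).

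Neither elongase was called lower. Elovl6 (ENSMUSG00000041220, chromosome 3 at 129532355 to 129638495, plus strand), which lengthens palmitate to stearate, had 113 and 115 CPM in KO and 95.3 and 93.7 CPM in WT. The KO libraries were the higher ones, by 1.21-fold (log2 fold change 0.27, SE of 0.0639 and edgeR adjusted p = 0.0473). That call was lost in each of the 4 fits without a library (edgeR adjusted p of 0.217 without KO replicate 1, 0.283 without KO replicate 2, 0.0695 without WT replicate 1 and 0.0833 without WT replicate 3), and the adjusted p ran from 0.0148 to 0.283 over all alternatives. Elovl1 (ENSMUSG00000006390, chromosome 4 at 118428093 to 118432953, plus strand), which makes very long chains for sphingolipids, had 56.7 and 62.6 CPM in KO and 56.5 and 55.8 CPM in WT. Its lower KO library lay level with WT, and the difference did not pass (log2 fold change 0.09, SE of 0.0841 and edgeR adjusted p = 0.562).

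Both stearoyl-CoA desaturases fell. Scd1 (ENSMUSG00000037071, chromosome 19 at 44394455 to 44407879, minus strand), the main form of liver and fat, had 8.88 and 10.4 CPM in KO and 30.5 and 32.2 CPM in WT. It fell 3.25-fold (log2 fold change -1.70, SE of 0.127 and edgeR adjusted p = 0.00144). Scd2 (ENSMUSG00000025203, chromosome 19 at 44293674 to 44306864, plus strand) had 699 and 691 CPM in KO and 2054 and 2233 CPM in WT. This was the highest level of the 10 genes in both genotypes, and it fell 3.09-fold (log2 fold change -1.63, SE of 0.0561 and edgeR adjusted p = 0.000209). Scd1 made up 1.40% and 1.65% of the summed Scd1 and Scd2 level per exon length in KO and 1.63% and 1.59% in WT. The Scd genes resemble each other and lie in 1 cluster, so reads of 1 may have been counted for another and the low Scd1 values are the less certain.

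Of the desaturases of polyunsaturated fatty acids, Fads2 fell and Fads1 did not pass. Fads2 (ENSMUSG00000024665, chromosome 19 at 10062765 to 10101746, minus strand), which takes the first step on linoleic and linolenic acid, had 97.6 and 101 CPM in KO and 359 and 341 CPM in WT. It fell 3.52-fold, more than any other of the 10 genes (log2 fold change -1.82, SE of 0.0636 and edgeR adjusted p = 0.000209), and ranked 390 from the lowest log2 fold change of the 15838 tested genes. Fads1 (ENSMUSG00000010663, chromosome 19 at 10182888 to 10196877, plus strand), which takes a later step, had 18.3 and 19.5 CPM in KO and 12.5 and 14.7 CPM in WT. Both KO libraries were above both WT libraries, but the log2 fold change of 0.48 (SE 0.130) did not pass (edgeR adjusted p = 0.0699). The genes lie 81142 bases apart, and Fads3, whose end lies 2655 bases from the end of Fads2 on the other strand, had 33.7 and 38.2 CPM in KO and 36.3 and 33.7 CPM in WT (edgeR adjusted p = 0.868).

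**Figure D2:**
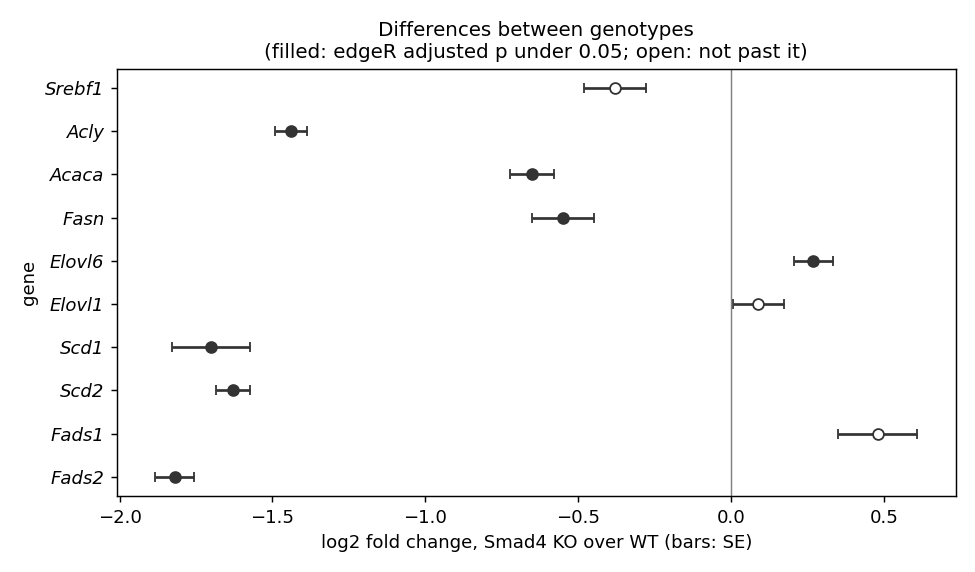
Log2 fold change of each gene, Smad4 KO over WT, with its SE (bars). Filled points passed an edgeR adjusted p of 0.05 and open points did not; Fads2 lies lowest at -1.82, and Elovl6 is the 1 gene that passed as higher, at 0.27.

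The calls of Scd1, Scd2, Acly and Fads2 held in all 11 alternative fits. Their log2 fold changes stayed within -1.82 to -1.59 for Scd1, -1.70 to -1.56 for Scd2, -1.49 to -1.40 for Acly and -1.87 to -1.78 for Fads2.

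Levels of different genes were set side by side as CPM per kb of merged exon length. In WT the order was Scd2 (392 ± 23.2), Acly (135 ± 1.44), Fads2 (106 ± 3.75), Fasn (56.0 ± 7.76), Srebf1 (24.6 ± 2.75), Elovl1 (20.6 ± 0.192), Elovl6 (14.7 ± 0.179), Scd1 (6.41 ± 0.257), Acaca (6.33 ± 0.227) and Fads1 (2.82 ± 0.317 CPM per kb, SD, n = 2). In KO Scd2 (127 ± 0.979) and Acly (49.9 ± 1.37) also led, followed by Fasn (38.4 ± 1.28), Fads2 (30.2 ± 0.797), Elovl1 (21.9 ± 1.54), Srebf1 (18.9 ± 1.25), Elovl6 (17.7 ± 0.289), Acaca (4.03 ± 0.160), Fads1 (3.93 ± 0.184) and Scd1 (1.97 ± 0.220 CPM per kb, SD, n = 2). Fads2 thus stood above Fasn in WT and below it in KO, and Scd1 was the lowest in KO, where Fads1 was the lowest in WT. Neighbours that did not differ beyond their spread were Scd1 and Acaca in WT, and Srebf1 and Elovl6 as well as Acaca and Fads1 in KO. These ties depend on the length used. With the longest transcript in place of merged exons Acaca stood at 7.23 ± 0.286 and Fads1 at 5.46 ± 0.256 CPM per kb in KO, Srebf1 at 24.8 ± 1.64 and Elovl6 at 19.2 ± 0.312 CPM per kb in KO, and Acaca at 11.4 ± 0.408 and Scd1 at 6.49 ± 0.260 CPM per kb in WT (SD, n = 2), so that none of the 3 pairs was tied.

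**Figure D3:**
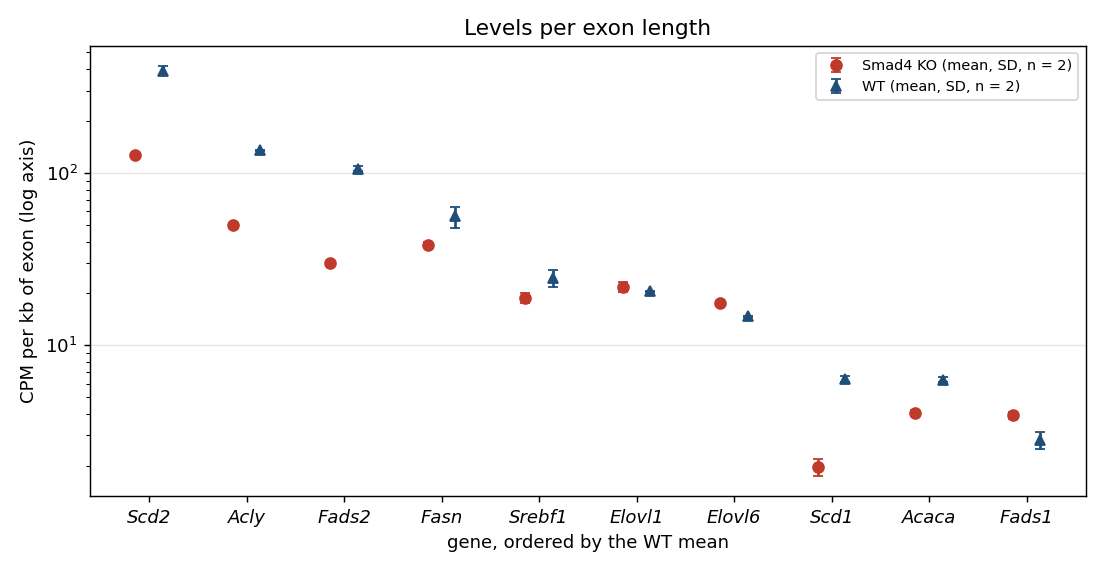
Mean level per exon length (CPM per kb, log axis) in Smad4 KO (left of each gene) and WT (right), with SD over 2 libraries, ordered by the WT mean. Scd2 leads in both genotypes, at 127 CPM per kb in KO and 392 in WT, and the spread of the 10 genes is more than the SD of any of them.

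The ratio of 2 genes within a library does not depend on how libraries are scaled. On the log2 scale Fads2 over Fads1 was 2.42 and 2.38 in KO and 4.84 and 4.54 in WT, a mean difference of -2.29 with no overlap. Acly over Fasn was -0.67 and -0.68 in KO and 0.38 and 0.07 in WT (difference -0.90), so that Acly had fewer counts than Fasn in KO and more in WT. Elovl6 over Elovl1 was 0.99 and 0.88 in KO and 0.75 and 0.75 in WT (difference 0.19). The ratio of Scd2 to Scd1, at 6.30 and 6.05 in KO and 6.08 and 6.11 in WT, overlapped between genotypes, as did that of Acaca to Fasn, at -2.54 and -2.68 in KO and -2.39 and -2.60 in WT. With 2 libraries a genotype no permutation test can reach 0.05, and these ratios are descriptions.

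**Figure D4:**
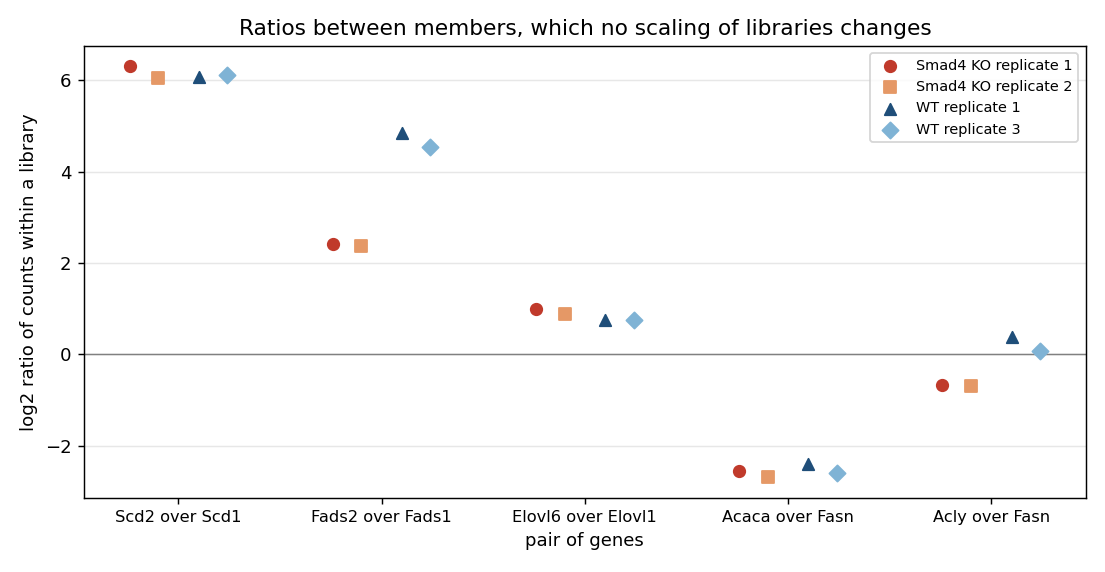
Log2 ratio of the counts of 2 genes within each library, for the 2 Smad4 KO libraries (left) and the 2 WT libraries (right). Fads2 over Fads1 stands at 2.38 to 2.42 in KO and 4.54 to 4.84 in WT, while Scd2 over Scd1 overlaps between genotypes.

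In the wider pathway, 85 genes in 6 lists were looked at, of which 81 were tested, and 22 fell, 7 rose and 52 did not pass. Over all tested genes 15.2% passed, 6.40% as lower and 8.83% as higher. From 23.5% (esterification) to 55.6% (cholesterol) of the tested genes of a list passed, and each list is short. The 13 genes that supply acetyl-CoA, malonyl-CoA and reducing power split: 4 fell, 2 rose and 7 did not pass, with a median log2 fold change of -0.04. Acss2, which makes acetyl-CoA from acetate, had 50.7 and 56.5 CPM in KO and 145 and 135 CPM in WT and fell 2.61-fold (edgeR adjusted p = 0.000841). Malic enzyme Me1, a source of NADPH, rose 3.57-fold, with 28.2 and 31.0 CPM in KO and 8.29 and 8.30 CPM in WT (edgeR adjusted p = 0.000782). Acacb, the carboxylase at the mitochondrial surface whose malonyl-CoA restrains fatty acid oxidation, had 56.0 and 58.0 CPM in KO and 28.8 and 29.2 CPM in WT, and so rose 1.97-fold (edgeR adjusted p = 0.00213) where its paralogue Acaca fell. Mecr, a reductase of mitochondrial fatty acid synthesis, fell 1.72-fold (36.0 and 38.6 CPM in KO, 65.0 and 63.6 CPM in WT, edgeR adjusted p = 0.00406).

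Of 11 other elongation genes 8 were tested, and 2 fell and 6 did not pass (median log2 fold change -0.24). The dehydratase Hacd3 fell 1.50-fold (57.9 and 60.0 CPM in KO, 88.4 and 88.4 CPM in WT, edgeR adjusted p = 0.00551) and the reductase Tecr 1.34-fold (87.5 and 95.7 CPM in KO, 131 and 114 CPM in WT, edgeR adjusted p = 0.0447). Both lost their calls without either KO library, and Tecr also without WT replicate 1 (edgeR adjusted p up to 0.0693 for Hacd3 and 0.236 for Tecr). The elongase Elovl7 had 98.3 and 90.4 CPM in KO and 114 and 110 CPM in WT (edgeR adjusted p = 0.0921), and the dehydratase Hacd4 3.73 and 2.70 CPM in KO and 1.52 and 1.95 CPM in WT (edgeR adjusted p = 0.126), so that neither passed. Of 9 other desaturases and electron carriers 2 fell, 1 rose and 6 did not pass (median log2 fold change 0.09). Scd3 had no count in either KO library and 0.758 and 0.734 CPM in WT, at least 31.6-fold lower in KO with a floor of 3 counts over the group (edgeR adjusted p = 0.0221). This bound takes the deposited counts as counts of reads, which the sources used here do not state. It lost its call without any 1 of the 4 libraries (edgeR adjusted p up to 0.0858). Degs1, the desaturase of ceramide synthesis, rose 1.94-fold, with 29.0 and 29.5 CPM in KO and 15.4 and 14.8 CPM in WT (edgeR adjusted p = 0.00408). The electron carrier Cyb5b fell 1.17-fold (383 and 379 CPM in KO, 442 and 452 CPM in WT, edgeR adjusted p = 0.0403), and lost this call when KO replicate 1, KO replicate 2 or WT replicate 3 was left out (edgeR adjusted p up to 0.269). Fads6 had 1.60 and 1.36 CPM in KO and 0.811 and 0.826 CPM in WT and did not pass (edgeR adjusted p = 0.207).

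Of 16 tested genes for Srebp processing and other lipogenic factors, 3 fell, 1 rose and 12 did not pass (median log2 fold change -0.06). Nr1h3, the oxysterol receptor LXRα that induces Srebf1 and Scd genes, fell 1.82-fold (10.4 and 9.52 CPM in KO, 19.1 and 17.3 CPM in WT, edgeR adjusted p = 0.0115). Insig1, which holds Srebp precursors in the endoplasmic reticulum, fell 1.29-fold (96.0 and 92.2 CPM in KO, 119 and 123 CPM in WT, edgeR adjusted p = 0.0224), and Mlxipl, the carbohydrate-responsive factor ChREBP, fell 1.36-fold (19.5 and 20.9 CPM in KO, 27.3 and 27.8 CPM in WT, edgeR adjusted p = 0.0429). Pparg, the nuclear receptor of fat storage, rose 1.38-fold (72.7 and 72.8 CPM in KO, 54.9 and 50.4 CPM in WT, edgeR adjusted p = 0.0181). Nr1h3, Insig1, Pparg and Mlxipl all lost their calls without either KO library, and Mlxipl also without either WT library (edgeR adjusted p up to 0.0870, 0.183, 0.133 and 0.237 in that order).

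Of 17 acyl-CoA synthetases and enzymes of esterification, 3 rose, 1 fell and 13 did not pass (median log2 fold change 0.10). Dgat2, which makes triglyceride, rose 1.65-fold (94.9 and 102 CPM in KO, 60.8 and 58.6 CPM in WT, edgeR adjusted p = 0.00378). The acyltransferase Agpat2 rose 1.76-fold (162 and 170 CPM in KO, 94.2 and 94.5 CPM in WT, edgeR adjusted p = 0.00172), while Agpat1, which acts at the same step, fell 1.39-fold (127 and 128 CPM in KO, 175 and 179 CPM in WT, edgeR adjusted p = 0.00728). The phosphatase Lpin2 rose 1.66-fold (52.3 and 50.0 CPM in KO, 30.0 and 31.6 CPM in WT, edgeR adjusted p = 0.00624). Agpat1 lost its call without either KO library and Lpin2 without KO replicate 1 (edgeR adjusted p up to 0.0768 and 0.0573). Cholesterol synthesis and uptake, which Srebp proteins also drive, had 10 of 18 genes lower and none higher, with 8 not passing and a median log2 fold change of -0.35. Sqle, an oxygenase of sterol synthesis, fell 1.55-fold (148 and 154 CPM in KO, 240 and 228 CPM in WT, edgeR adjusted p = 0.00358). Mvk fell 1.74-fold (29.4 and 31.6 CPM in KO, 57.3 and 48.6 CPM in WT, edgeR adjusted p = 0.0108) and Nsdhl 1.57-fold (37.2 and 39.5 CPM in KO, 58.9 and 61.6 CPM in WT, edgeR adjusted p = 0.00736). Mvk lost its call without either KO library and Nsdhl without KO replicate 1 (edgeR adjusted p up to 0.0813 and 0.0780).

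With all 4 libraries 22 of these pathway genes passed as lower, and fewer did when either KO library was left out. Such a fit has 1 KO library. The share of all tested genes that passed in it is not given here. Whether the drop is particular to these genes was not tested.

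**Figure D5:**
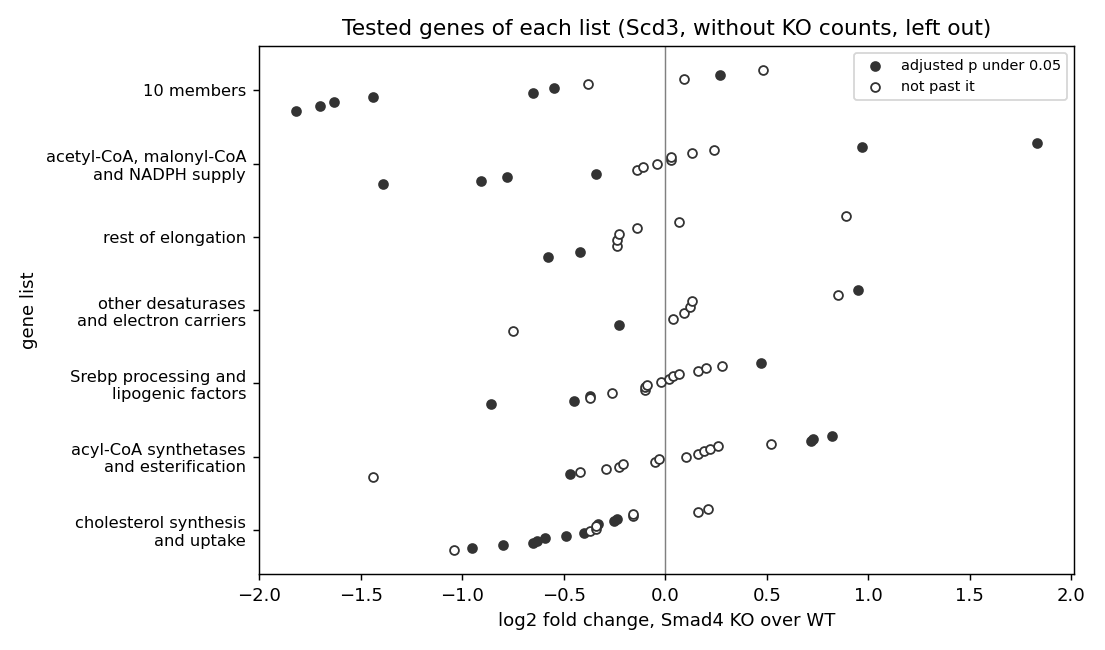
Log2 fold change, Smad4 KO over WT, of the tested genes in the 10 members and the 6 pathway lists. Scd3, which fell and had no count in KO, is left out. Filled points passed an edgeR adjusted p of 0.05. Cholesterol genes lie mostly below 0 (10 of 18 lower, none higher), while the supply list holds both Acss2, which fell 2.61-fold, and Me1, which rose 3.57-fold.

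The neighbours of the 10 genes along the chromosome, the nearest tested protein-coding gene on each side, were looked up after the members' values were seen. For Acaca both sides gave Gm11437, which lies within Acaca on the other strand, so no gene flanking Acaca was looked at. Leaving out neighbours that are themselves among the 10, such as Fads1 and Fads2, there were 16 genes. Of these 3 fell, none rose and 13 did not pass, where 6.40% of all tested genes passed as lower and 8.83% as higher. The fallen ones were low in both genotypes: Wnt8b next to Scd1 (means of 0.104 CPM in KO and 1.11 CPM in WT), Scd3 next to Scd2, and Enpep next to Elovl6 (0.628 CPM in KO and 1.88 CPM in WT). Dus1l and Ccdc57 beside Fasn and Klhl11 beside Acly did not pass.

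The profiles most like that of Fasn over the 4 libraries, by Euclidean distance between centred log2 CPM, were those of Gemin4 (0.0388), Stat5a (0.0477) and Ift122 (0.0491). For Srebf1 they included those of Jund (0.0308) and Dcaf4 (0.0413).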

How the data were processed

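RNA sequencing of colonic epithelial cells gave 2 Smad4 KO and 2 WT libraries. The authors deposited whole-number counts per Ensembl gene, not normalized, in 1 table of 31227 rows. The submitters' processing notes name HISAT2 2.1.0 and StringTie 1.3.3b, next to FastQC 0.19.7 and SAMtools 1.9, and the build GRCm38. The counting tool, its annotation, its use of strand and its handling of multiply mapped reads: not given in the sources used here. Per the labels' protocols, total RNA was reverse transcribed with random hexamers.

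Columns were matched to libraries by title, with 0 left over. GENCODE M21 named 31207 rows and gave positions and exon lengths. Of 19618 genes with counts, edgeR 4.0.16 (R 4.3.3; filterByExpr) kept 15838, which were scaled by TMM and tested by the quasi-likelihood F test with genotype as the only term and Benjamini-Hochberg adjustment over all of them, at a threshold of 0.05. CPM use TMM-scaled library sizes, and SE is the log2 fold change over the square root of F. Alternatives were DESeq2 size factors, upper-quartile scaling, library totals, no low-count filter, 1 CPM in 2 libraries, DESeq2 1.42.0, limma-voom 3.58.1 and leaving out each library. The fit was tested on simulated data.

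Replicate libraries were not the same library deposited again (mean chi-square per gene 32.6 in KO and 39.8 in WT). Floors cover counting error only. If the counts were estimated from StringTie coverage, as whole numbers can be, 1 count is not 1 read and floors are approximate. Members and lists were chosen with earlier results of these data known. Named genes are the 10 members, up to 4 of each pathway list with the smallest p and all called genes of lists with 5 or fewer, the most abundant marker of each list where named, and the 3 profiles nearest to Fasn and to Srebf1; any others are said to have been chosen later or are named as markers without counts. Some genes that this rule names are not reported here.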

Additional observations from a re-analysis of the deposited data

How the results depend on the processing

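The number of the 10 genes that fell was 4 to 7 over all alternatives, against 6. The 1 rise, that of Elovl6, was not called with DESeq2 size factors, with library totals or with no low-count filter (0 in each), and was called 0 times (0 to 0) in the fits that left out a library. Pathway genes called lower numbered 6 to 23 in the fits without a library and 21 to 27 otherwise, against 22. For the 10 members and the named pathway genes, no log2 fold change changed direction in 373 comparisons with an alternative. Of these, 331 stayed on their side of the threshold, 38 lost their call and 4 gained one. The markers and the nearest profiles were not compared in this way. The cause of these losses was not tested, though such fits have 1 library in an arm, which is assumed to vary like the others. The difference in Scd2 over Scd1 turned to -0.04 without KO replicate 1 and ranged from -0.04 to 0.20 when 1 library was left out, against 0.08. With the longest transcript in place of merged exons, levels in KO became 41.8 (Fasn), 7.23 (Acaca), 59.5 (Acly), 19.2 (Elovl6), 32.9 (Elovl1), 5.46 (Fads1), 31.6 (Fads2) and 24.8 (Srebf1) CPM per kb. Elovl1 (SD 2.32) then stood above Fads2 (SD 0.834), but by less than their spread. In WT the levels became 11.4 (Acaca), 161 (Acly), 15.9 (Elovl6), 31.0 (Elovl1), 3.92 (Fads1), 111 (Fads2) and 32.2 (Srebf1) CPM per kb, which puts Acaca above Scd1. Srebf1 (SD 3.60) and Elovl1 (SD 0.289) in WT then did not differ beyond their spread. No paired analysis was possible because the genotypes share only replicate number 1.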
